A study of Bos taurus with 5 samples.

Results

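The comparison described here sets the skin- and lung-labelled RNA sequencing libraries of a cattle series against its brain-, heart- and limb-labelled libraries, gene by gene. The sides are not groups of the study. They were chosen by the measured values of cell cycle genes, which were high in the first 2 of these same libraries and low in the other 3, so the cell cycle genes were set aside here and no test supports the split. A gene was taken to separate the sides when its lowest value on one side exceeded its highest on the other. It was called higher or lower in the skin- and lung-labelled libraries when, in addition, the lowest value of the higher side was at least 10 FPKM and the closest values of the sides were at least 2-fold apart after adding 1 FPKM. FPKM are fragments per kilobase of transcript in a library of fixed total. Of 27607 genes in the table, 8694 had a mean of at least 1 FPKM and were examined, and 487 were called. Those higher in the skin- and lung-labelled libraries numbered 238 (2.74%), and 249 (2.86%) were lower. After 49 genes of the cell cycle list were set aside, 189 higher genes remained, which is 2.23% of the 8474 examined genes outside the list. None of the lower genes was in that list, so all 249 remained (2.94%).

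The series held 5 libraries of total RNA from Bos taurus, with 1 library for each tissue label. Cells were lysed and their RNA was pre-amplified on a Fluidigm microfluidic chip for single cells, by the labels' protocol. Genotype, breed, age, treatment and the count of cells or animals per library were not given in the sources used here. Nothing was replicated, and every value below describes these libraries only, with no error and no p-value.

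Markers of the labelled tissues were mostly at 0, with exceptions. Of 107 entries in 14 lists of cell type markers, between 17 and 22 were above 0 in each library. GFAP and SNAP25 of brain, KRT1 and KRT14 of epidermis, SFTPB and SCGB1A1 of lung, MYH7 and TNNT2 of heart, and MYOD1 and ACAN of limb muscle and cartilage were listed at 0 in all 5. Other entries were above 0 under every label, among them FABP7 (70.5 to 151 FPKM) and PAX6 (16.7 to 42.6 FPKM) of neural progenitors and KRT10 (7.43 to 27.8 FPKM) of epidermis. SFTPC of the alveolus was above 0 in limb alone, at 34.2 FPKM, and KRT5 of basal epidermis in lung alone, at 51 FPKM. SPP1 of the cartilage and bone list was highest in limb, at 1753 FPKM, followed by heart at 886 FPKM. ACTC1 of heart muscle was also highest in limb, at 231 FPKM. The libraries are therefore called by their labels, and no direction below is taken as one for a tissue. The skin- and limb-labelled libraries had the fewest genes above 0, at 5109 and 5319, against 5991 in the lung-labelled, 6599 in the brain-labelled and 6634 in the heart-labelled library. Depth is not known, so a gene listed at 0 may lie below what a library could show. Whether a library holds 1 cell or many is unknown, and fewer cells of a type and less RNA per cell cannot be told apart.

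Dividing cells make histones, ribosomes, chaperones and mitochondrial proteins for growth, and contractile and matrix genes are typical of spread fibroblasts and smooth muscle cells. The transcription factor ATF4 turns on genes for amino acid supply when amino acids run short or the endoplasmic reticulum is under load. YAP and its partner TAZ turn on CCN1, CCN2 and ANKRD1 when actin fibres are under tension, TGF-beta turns on matrix genes, and interferons turn on antiviral genes.

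Among all examined genes, 890 (10.2%) had both the skin and lung values above the other 3, 799 (9.19%) had both below, and 7005 overlapped. The median difference in mean log2(FPKM + 1), skin and lung minus the rest, was -0.20. Restricted to the 2607 genes above 0 in all 5 libraries, 423 (16.2%) separated upward and 312 (12%) downward, and 58 (2.22%) and 63 (2.42%) were called. The 189 higher genes outside the cell cycle list had a median level of 63.2 FPKM on the higher side, and the 249 lower genes one of 54.1 FPKM. The gap between the closest values was wider for the lower genes, with a median of 3.01 on the log2(FPKM + 1) scale against 1.70 for the higher genes. Zeros were unevenly shared as well. Both the skin and lung values were 0 for 102 of the 249 lower genes, whereas all 3 opposing values were 0 for 30 of the 189 higher genes. The first count needs 2 libraries at 0 and the second needs 3. Among the 189 higher genes the larger of the skin and lung values was a median of 1.504 times the smaller. Among the 249 lower genes the largest of the brain, heart and limb values was a median of 2.19 times the smallest.

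**Figure D1:**
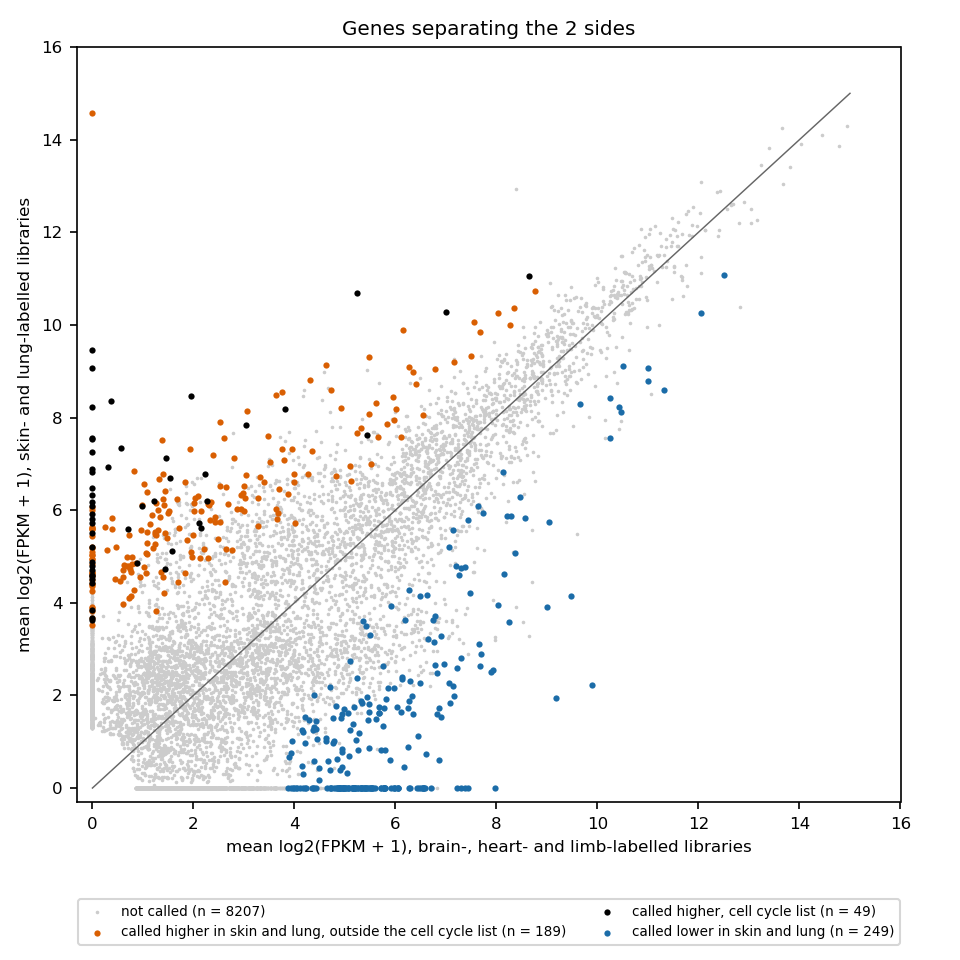
Each point is 1 of the 8694 examined genes, placed by its mean log2(FPKM + 1) over the brain-, heart- and limb-labelled libraries (x axis) and over the skin- and lung-labelled libraries (y axis), with the diagonal marking equal means. The 189 orange and 49 black (cell cycle) points above the diagonal are the genes called higher on the skin and lung side, and the 249 blue points below it are those called lower, of which 102 lie on the x axis with both values at 0.

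Genes of the actin cytoskeleton were lower together in the skin- and lung-labelled libraries. Of 66 examined members of the actin and contractile list, 33 separated downward (50%, against 9.19% of all genes) and 2 upward, RDX and MYL6B. Of the 33, 7 were called. The median difference of the list was -1.04, and it was -0.88 over its 52 members above 0 in all 5 libraries, so it did not rest on genes at 0. The count of 33 was 33 to 35 when the libraries were rescaled. Values are listed from here on in the order skin and lung, then brain, heart and limb. The sides of a gene said to separate, or to be called, do not overlap. The counts of each list are to be read beside the shares of all examined genes. Of those, 10.2% separated upward and 9.19% downward, and 2.74% were called higher and 2.86% lower.

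TPM2, the beta-tropomyosin that winds along actin filaments, stood at 279 and 279 FPKM against 1149, 1556 and 1581 FPKM. The sides did not overlap, the closest values were 4.11-fold apart after adding 1, and skin and lung were equal to 3 digits. TAGLN, the smooth muscle protein transgelin, was at 764 and 253 FPKM against 2350.1, 2131 and 1731 FPKM. Its relative TAGLN2 was at 661 and 467 FPKM against 1339.7, 1664 and 1373 FPKM. For both genes lung was the lowest library. CALD1, caldesmon, which holds back actomyosin, was at 109 and 115 FPKM against 284, 261 and 290.4 FPKM, with little spread within either side. DSTN, an actin-severing protein, stood at 910.2 and 1623 FPKM against 3751, 3928 and 5151 FPKM. TLN1, talin, which ties integrins to actin, stood at 7.85 and 10.04 FPKM against 50.6, 34.7 and 49.8 FPKM. PDLIM2, an actin-associated adaptor, was listed at 0 on the skin and lung side and at 23.0, 94.7 and 13.5 FPKM on the other. FHL2, a LIM-domain partner of actin-regulated transcription that is in none of the lists, was at 321 and 277 FPKM against 1301, 1982 and 1019 FPKM.

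The most abundant actins and their regulators separated in the same direction without a 2-fold gap. ACTB, beta-actin, was at 9412 and 7609.6 FPKM against 12038, 16627 and 11145 FPKM. ACTA2, the smooth muscle actin, was at 3067 and 589 FPKM against 4649.7, 8209 and 9827 FPKM, with lung lowest. ACTG1, gamma-actin, was at 2804 and 2828 FPKM against 4980.3, 4314 and 3576 FPKM. Not every abundant member followed. MYL6, a myosin light chain, overlapped, at 11434 and 10460.2 FPKM against 10886, 14565 and 18397 FPKM. So did PFN1, profilin, at 5468 and 6167 FPKM against 6124, 6203 and 5754 FPKM. Beside these values, the smooth muscle and pericyte markers summed to 3924 and 865 FPKM against 7021, 10622 and 12159 FPKM, carried by ACTA2, TAGLN and CNN1, which are also in the contractile list. The other 4 of its 7 entries, MYH11, RGS5, MCAM and PDGFRB, were at 0 in all 5 libraries. The striated muscle actins ACTC1 and ACTA1 differed in the same direction at lower levels. The 8 cardiomyocyte entries summed to 0 and 0 against 60.4, 5.21 and 231 FPKM, mostly from ACTC1, the cardiac actin, at 0 and 0 against 57.7, 5.21 and 231 FPKM. The 8 skeletal muscle entries summed to 0 and 0 against 1.27, 1.57 and 55.7 FPKM, including ACTA1, the skeletal actin, at 0 and 0 against 1.27, 1.57 and 37.6 FPKM. Both actins separated downward, are also in the contractile list, and were highest in limb. In each of the cardiomyocyte and skeletal muscle lists, 6 of the 8 entries were at 0 in all 5 libraries. The remaining entries were MYH6, above 0 in brain alone, and TNNT1, above 0 in limb alone. The part of smooth or striated muscle cells in the actin difference was not tested.

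Targets of YAP and TGF-beta held some of the widest gaps. CCN2, a matricellular growth factor modulator, stood at 7.97 and 0.63 FPKM against 307, 629.6 and 1009.7 FPKM, a mean difference of -7.25 on the log2(FPKM + 1) scale. ANKRD1, a nuclear and sarcomeric ankyrin protein, was at 20.7 and 0 FPKM against 849.6, 764 and 1308 FPKM. CCN1 was at 9.98 and 0 FPKM against 97.7, 98.9 and 157 FPKM. In all of them the limb-labelled library was highest and the lung-labelled lowest. Of the 31 examined members of the YAP and TGF-beta list, 8 separated downward (25.8%, against 9.19% of all genes) and 1 upward, ID3. Of the 31, 5 were called lower, where 2.86% of all genes were. The list's median difference was -1.43. Leaving out the heart-labelled library made it -0.87. Of the list's 46 entries, 12 were at 0 in all 5 libraries, YAP1 and the ligands TGFB1 and TGFB3 among them. The activity of YAP and of TGF-beta was not tested.

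Matrix genes followed in part. COL1A2, a chain of type I collagen, was at 19.7 and 6 FPKM against 311, 523 and 174 FPKM, 8.49-fold apart at the closest. Its partner chain COL1A1 separated with a gap just short of 2-fold, at 11.4 and 37.2 FPKM against 131, 191 and 74.4 FPKM. FN1, fibronectin, was at 34.1 and 20.9 FPKM against 106, 262 and 113 FPKM. Both collagen I chains and fibronectin were highest in the heart-labelled library. LOXL2, which crosslinks collagen, was at 47.7 and 0 FPKM against 139.6, 159 and 171 FPKM. MFAP2, a microfibril protein, was listed at 0 in skin and lung and at 126, 106 and 49.99 FPKM in the rest. CD44, the hyaluronan receptor, stood at 4.65 and 14.2 FPKM against 95.7, 76.0 and 135 FPKM. Of 42 examined collagens and matrix proteins, 10 separated downward (23.8%), 1 upward (EFEMP1) and 31 overlapped. SPARC, a collagen-binding protein, was among the overlapping ones, at 2889.9 and 855 FPKM against 3128, 5472 and 2144 FPKM. The list's median of -0.90 was -0.40 without the heart-labelled, -0.50 without the lung-labelled, and -1.49 without either the skin- or the limb-labelled library. The fibroblast and mesenchyme markers, 10 entries that include both collagen I chains, summed to 2637 and 1112 FPKM against 2186, 3219 and 1743 FPKM, so their sums overlapped. Their largest member, VIM (vimentin), overlapped as well, and DCN, LUM and THY1 were at 0 in all 5 libraries. The part of fibroblasts in the matrix difference was not tested.

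**Figure D2:**
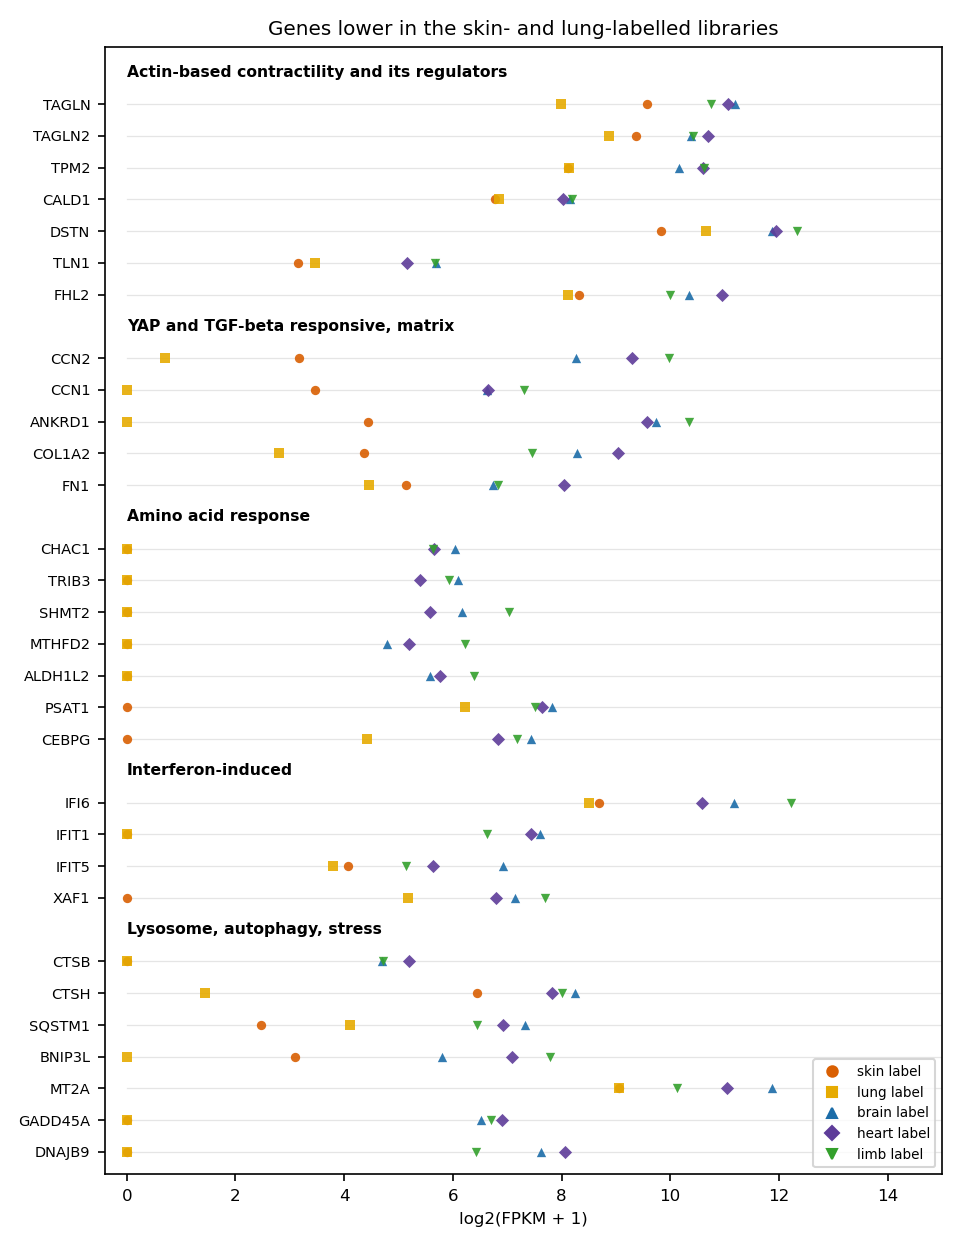
Values of 30 genes called lower in the skin- and lung-labelled libraries, as log2(FPKM + 1) on the x axis, with 1 row per gene and 1 marker per library (orange circle skin, yellow square lung, blue, purple and green for brain, heart and limb). In each row the orange and yellow markers lie to the left of the other 3, and for CHAC1, TRIB3, SHMT2, MTHFD2, ALDH1L2, IFIT1, CTSB, GADD45A and DNAJB9 both lie on top of each other at 0.

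The amino acid response was the list with the largest share of lower genes. Of 33 examined members of the ATF4 list, 18 separated downward (54.5%, against 9.19% of all genes), 0 separated upward and 10 were called. ATF4 itself was at 169.6 and 299 FPKM against 581, 579 and 1148 FPKM, so the sides separated, with a gap short of 2-fold. Serine and one-carbon enzymes of the mitochondrion stood out by their zeros. SHMT2, which moves a carbon from serine to folate, was listed at 0 and 0 against 70.8, 46.9 and 130.0 FPKM. MTHFD2, the next enzyme, was at 0 and 0 against 26.6, 35.5 and 73.7 FPKM. ALDH1L2, which burns the folate-bound carbon, was at 0 and 0 against 46.9, 53.7 and 83.1 FPKM. PSAT1, of serine synthesis, was at 0 in skin but at 74.2 FPKM in lung, against 226, 198 and 181 FPKM. PHGDH, the first enzyme of the same path, overlapped, at 140.1 and 265 FPKM against 75.8, 153 and 199 FPKM.

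Regulators in the list gave a similar split. CEBPG, the dimer partner of ATF4, was at 0 and 20.5 FPKM against 172, 112 and 143 FPKM. TRIB3, a pseudokinase that feeds back on ATF4, was at 0 and 0 against 67.3, 41.0 and 59.6 FPKM. CHAC1, which degrades glutathione, was at 0 and 0 against 64.7, 49.1 and 48.9 FPKM. DDIT3 (CHOP), a further stress factor, did not follow and stood at 149.97 and 73.0 FPKM against 176, 116 and 40.5 FPKM. ASNS, asparagine synthetase, separated at 0 and 145 FPKM against 279, 276 and 632 FPKM but missed the 2-fold gap. The transporter SLC1A5, which carries glutamine, was at 0 and 14.7 FPKM against 107, 40.4 and 114 FPKM. PYCR1, of proline synthesis, was at 4.68 and 59.5 FPKM against 124, 274 and 166 FPKM. PCK2, which makes phosphoenolpyruvate in mitochondria, was at 0 and 2.14 FPKM against 18.3, 95.2 and 76.0 FPKM. In CEBPG, PSAT1, ASNS, SLC1A5, PYCR1 and PCK2 lung stood above skin, while the enzymes at 0 in both gave no order. The list's median difference was -3.01, -2.0 without the skin-labelled library, and -1.69 over its 7 members above 0 in all 5 libraries, 4 of which separated downward.

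Aminoacyl-tRNA synthetases, several of which ATF4 also drives, separated downward for 6 of 24 genes (25.0%) and upward for 1, AARS1. TARS1, which charges threonine, stood at 20.2 and 0.62 FPKM against 293, 281 and 176 FPKM. WARS1, the tryptophan enzyme and also an interferon target, was at 0.49 and 149 FPKM against 730.3, 315 and 570.3 FPKM. SARS1, the serine enzyme, was at 43.2 and 83.7 FPKM against 205, 271 and 170.3 FPKM. IARS1, the isoleucine enzyme, was at 4.68 and 0.35 FPKM against 23.0, 60.2 and 56.6 FPKM. The other 17 genes overlapped. The median of the list was -1.27, and without the skin-labelled library it was 0.14, so it turned direction with that library.

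Interferon-induced genes separated downward for 8 of 31 (25.8%, against 9.19% of all genes) and upward for 2. Of the 8, 6 were called lower, where 2.86% of all genes were. IFI6, a mitochondrial interferon-induced protein, was at 411 and 362 FPKM against 2296, 1538 and 4758 FPKM. IFIT1, which binds foreign RNA, was at 0 and 0 against 194, 173 and 97.9 FPKM. Its relative IFIT5 was at 15.8 and 12.8 FPKM against 120.5, 48.8 and 34.4 FPKM. For both IFIT genes the brain-labelled library was highest, while IFI6 was highest in limb. XAF1, a pro-apoptotic target, was at 0 and 35.1 FPKM against 141, 109 and 206 FPKM. IFI27L2 stood at 12.1 and 10.8 FPKM against 48.4, 51.9 and 149 FPKM. The 2 genes called in the other direction were IRF1, the interferon regulatory factor, at 70.1 and 15.3 FPKM against 0 in all 3, and OAS1X, of the oligoadenylate synthetase family, at 14.9 and 17.6 FPKM against 3.57, 0 and 0 FPKM. IFITM3, a membrane barrier to viruses whose name has 2 entries in the table, overlapped at 2551 and 8726 FPKM against 9293, 4599.5 and 8681 FPKM.

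Antigen presentation genes separated downward for 6 of 17 (35.3%), with 1 called. That gene, listed under the name BoLA of the cattle class I family, was at 0 and 3.26 FPKM against 16.8, 32.0 and 87.8 FPKM, and its near-identical relatives make its value uncertain. B2M, the light chain of class I molecules, was at 1955 and 2042 FPKM against 3299, 2502 and 4262 FPKM. PSME1, an activator of the immunoproteasome, was at 605 and 637 FPKM against 1409, 813 and 1322 FPKM. TAPBP, the peptide-loading protein tapasin, separated upward, at 49.1 and 81.4 FPKM against 29.0, 16.9 and 12.9 FPKM. Macrophage and blood markers, 8 entries, were at 0 in all 5 libraries.

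Genes of the secretory pathway and of degradation were lower in smaller shares. Of 46 examined genes for folding in the endoplasmic reticulum, 9 separated downward (19.6%) and 2 upward. DNAJB9, a cochaperone of the unfolded protein response, was at 0 and 0 against 196, 267 and 84.9 FPKM. HSPA5 (BiP), the main chaperone there, separated at 542 and 84.3 FPKM against 2032, 1488 and 847 FPKM, with lung lowest. XBP1, a transcription factor of this response, separated by less, at 84.4 and 76.3 FPKM against 122.7, 127 and 118 FPKM. Lysosomal genes separated downward for 11 of 56 (19.6%) and upward for 3. Calls were even, with 2 higher, whose values are not reported here, and 2 lower, which follow. CTSB, the protease cathepsin B, was at 0 and 0 against 25.0, 35.4 and 25.2 FPKM. CTSH, cathepsin H, was at 86.1 and 1.72 FPKM against 304, 226 and 255 FPKM. Autophagy genes separated downward for 5 of 30 (16.7%) and upward for 0. SQSTM1 (p62), the receptor for ubiquitinated cargo, was at 4.55 and 16.3 FPKM against 160.3, 121 and 85.9 FPKM. BNIP3L, a receptor for mitochondria, was at 7.5 and 0 FPKM against 55.1, 135 and 221 FPKM. ATG12, which is conjugated to build the autophagosome, was at 0 and 0 against 143, 74.0 and 22.3 FPKM.

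Single stress and growth-arrest genes were among the called ones. GADD45A, a growth-arrest gene shared by the p53 and ATF4 pathways, was at 0 and 0 against 90.3, 119 and 103 FPKM. PMAIP1 (NOXA), a trigger of apoptosis, was at 0 and 0 against 39.0, 41.2 and 175 FPKM. FOS, the immediate early factor, was at 3.78 and 0 FPKM against 53.2, 54.9 and 220.5 FPKM. DUSP1, an immediate early phosphatase, overlapped, at 71.5 and 226 FPKM against 124, 127 and 214 FPKM. MT2A, a metal-binding metallothionein, was nearly equal in skin and lung, at 531 and 533 FPKM, against 3728, 2100.2 and 1110.2 FPKM. SAT1, the rate-limiting enzyme of polyamine breakdown, was at 378 and 93.2 FPKM against 765, 1659 and 1395 FPKM. ATOX1, the copper chaperone and the most abundant lower gene, stood at 2344 and 1995 FPKM against 5252, 5825 and 6438 FPKM.

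Of the 249 lower genes, 175 were in none of the lists. The widest gap was that of a list member. AP3S1, a subunit of an adaptor for lysosomal cargo, was at 0 and 0 against 198, 292 and 275 FPKM. TM2D1, in no list, was at 0 and 0 against 186, 145 and 139 FPKM. SMAD2, a signal transducer of TGF-beta, was at 0 and 0 against 141, 47.5 and 42.1 FPKM. These genes had no signal at all in skin and lung, where zeros were frequent: 43.6% of examined genes were at 0 in skin and 34.2% in lung. In brain, heart and limb the shares were 28.3%, 28.6% and 41.3%. Other lower genes gave graded values. STX7, an endosomal syntaxin, was above 0 in every library, at 0.60 and 0.71 FPKM against 59.0, 71.7 and 209 FPKM. ANXA3, a membrane-binding annexin, was at 259.7 and 447 FPKM against 1043, 1136 and 1528 FPKM. GLIPR2, a protein of the Golgi membrane, was at 3.96 and 62.9 FPKM against 840.1, 818 and 515 FPKM. Of the 249 lower genes, 63 were above 0 in all 5 libraries.

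Turning to the higher genes, chromatin components outside the cell cycle list were the list with the largest share of called members. Close relatives of several members, such as H2AZ1, HMGB2, CBX5 and ANP32E, are in the cell cycle list that defined the sides. The share is therefore not independent of how the sides were chosen. Of 27 examined, 11 separated upward (40.7%, against 10.2% of all genes), 1 downward (H1-2), and 6 were called higher. The median difference was 0.81, and 0.79 over the 16 members above 0 in all 5 libraries. H2AZ2, a histone H2A variant placed at promoters, was at 1868 and 1545 FPKM against 401, 471 and 434 FPKM. The 2 sides were far apart compared with the spread within each, since the closest values differed 3.28-fold. CBX3, a heterochromatin protein whose name has 2 entries in the table, was at 389 and 461 FPKM against 111, 68.3 and 78.4 FPKM. HMGB1, a DNA-bending protein, was at 1637 and 693 FPKM against 322, 162 and 125 FPKM. The call of HMGB1 was lost when libraries were rescaled to a total without mitochondrial and haemoglobin genes or without the cell cycle list. ANP32A, a histone chaperone, was at 64.0 and 24.9 FPKM against 4.52, 7.80 and 0 FPKM. MACROH2A1, a large histone variant of silent chromatin, was at 13.1 and 16.5 FPKM against 1.10, 0.68 and 0 FPKM.

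Some chromatin genes outside the list had wider gaps. H2BC15, a core histone H2B gene, was at 364 and 379 FPKM against 54.8, 20.8 and 1.06 FPKM. H2BC11, another H2B gene, was at 50.5 and 47.6 FPKM against 0 in all 3. Core histones of this kind are made in S phase, although these names were not in the cell cycle list, and near-identical copies make both values uncertain. PSIP1, a reader of methylated chromatin, was at 40.2 and 72.8 FPKM against 3.11, 8.32 and 2.36 FPKM. PRMT7, an arginine methyltransferase, was at 64.3 and 64.2 FPKM against 17.9, 4.01 and 3.70 FPKM. RNASEH2C, which clears RNA from DNA hybrids, was at 499.6 and 293 FPKM against 13.9, 13.7 and 81.8 FPKM.

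Splicing genes separated upward for 21 of 77 (27.3%) and downward for 2, and 7 were called higher. SRSF3, a serine and arginine-rich splicing factor, was at 1128 and 1545 FPKM against 416, 198 and 412 FPKM. HNRNPA2B1, which packages nascent transcripts, was at 1045 and 998 FPKM against 302, 363 and 259.6 FPKM. HNRNPM, another such protein, was at 121 and 97.3 FPKM against 23.4, 31.7 and 7.91 FPKM. Skin and lung were nearly alike in the last 2 genes. LSM5, of the ring on U6 RNA, was at 711 and 575 FPKM against 134, 233 and 184 FPKM. LSM4, of the same ring, was at 444 and 630.1 FPKM against 109.9, 62.3 and 189 FPKM. EIF4A3, the anchor of the exon junction complex, was at 169 and 279 FPKM against 48.1, 37.7 and 32.9 FPKM. CRNKL1, a core spliceosome protein, was at 44.6 and 15.8 FPKM against 1.31, 0 and 0.99 FPKM. SNRPD1, a core Sm protein, was among the 54 that overlapped, at 1091 and 1394 FPKM against 1193, 625 and 774 FPKM. The list's median difference was 0.64, and its upward count was 20 or 21 under each rescaling. THOC6, of the complex that couples splicing to export and outside this list, was at 49.3 and 45.7 FPKM against 0 in all 3.

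Heat shock proteins and chaperonins separated mostly upward, unlike the chaperones of the endoplasmic reticulum. Of 48 examined heat shock and chaperonin genes, 15 separated upward (31.2%), 2 downward, 2 were called higher and 1 lower. HSPA8, the constitutive HSP70, was at 1106 and 1465 FPKM against 531, 552 and 603 FPKM. HSP90AA1, an HSP90, was at 574 and 751 FPKM against 403, 299.8 and 153 FPKM. HSPE1, the mitochondrial chaperonin cap, was at 1474 and 2879 FPKM against 1065, 1034 and 937 FPKM. These separated without reaching the 2-fold gap. STIP1, which hands clients from HSP70 to HSP90, was called, at 149 and 172 FPKM against 63.6, 57.1 and 0 FPKM. HSPA1A, the inducible HSP70, was at 22.5 and 25.5 FPKM against 0 in all 3, and it has a near-identical copy. BAG2, an HSP70 cochaperone, was the called gene in the other direction, at 0 and 0 against 80.7, 37.0 and 94.0 FPKM. The list's median was 0.79, and 0.50 without the lung-labelled library.

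Constitutive proteasome genes separated upward for 9 of 38 (23.7%), downward for 2, and 3 were called higher. PSMD6, a lid subunit, was at 189 and 189.9 FPKM against 80.1, 22.2 and 66.8 FPKM. PSMD2, a base subunit, was at 171 and 236 FPKM against 79.0, 11.4 and 53.4 FPKM. PSMD2 lost its call when libraries were rescaled to a total without the cell cycle list. The downward members were PSMB4, at 284.5 and 363 FPKM against 633, 424 and 924 FPKM, and PSMD7. The median of the list was 0.27, and 0.09 without the heart-labelled library.

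Genes of the respiratory chain and of the ribosome separated upward often but by little. Nuclear genes of complexes III to V did so for 15 of 38 (39.5%) and those of complex I for 12 of 38 (31.6%), with 0 downward in either list. Rescaling left 13 of the former and 8 or 9 of the latter. Of the 38 genes in each list, 36 and 37 were above 0 in all 5 libraries. Among all genes of that kind 16.2% separated upward, against 10.2% of all examined genes. The medians were 0.50 and 0.41 on the log2(FPKM + 1) scale. ATP5MC1, a subunit of the ATP synthase ring, was at 941 and 1034 FPKM against 533, 491 and 306 FPKM. NDUFB10, of complex I, was at 782 and 692 FPKM against 419, 449.7 and 495 FPKM. COX3, encoded in the mitochondrial genome, was at 19897 and 19099 FPKM against 13374, 14264 and 11027 FPKM. NDUFV3 was the gene of these lists that was called, at 292 and 209 FPKM against 101, 46.9 and 48.5 FPKM, and its call was lost under each rescaling.

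Cytosolic ribosomal proteins separated upward for 28 of 82 (34.1%) and downward for 2, RPL12 and RPS12, with 0 called in either direction. Of the 82, 81 were above 0 in all 5 libraries, and 16.2% of all such genes separated upward. RPS15 was at 3914 and 5187 FPKM against 2030.4, 2009.9 and 2776 FPKM. RPL36A was at 1474 and 2178 FPKM against 357, 869 and 1143 FPKM. RPS12 ran the other way, at 1628 and 1409 FPKM against 2723, 2290.5 and 3691 FPKM. The list's median was 0.33, 0.18 without the lung-labelled and 0.56 without the skin-labelled library, and 22 to 25 members separated upward after rescaling. As a share of all FPKM, ribosomal protein genes made up 12.4% and 15.6% against 11.6%, 11.5% and 12.5%, so skin overlapped the limb value.

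Mitochondrial genes of other kinds were called singly. CISD1 (mitoNEET), an iron-sulfur protein of the outer membrane, was at 557 and 1521 FPKM against 256, 159.8 and 204 FPKM. MRPS12, of the mitochondrial ribosome, was at 372 and 537 FPKM against 58.9, 127 and 0 FPKM. MRPL34, of the same ribosome, was at 527 and 225 FPKM against 35.2, 70.1 and 91.6 FPKM. Its relative MRPL9 was called in the other direction, at 60.7 and 73.9 FPKM against 233, 169 and 199 FPKM. PDHB, of the pyruvate dehydrogenase complex, was at 253 and 343 FPKM against 109.6, 85.5 and 1.91 FPKM. PDHX, of the same complex, was at 68.9 and 81.4 FPKM against 31.1, 0 and 0 FPKM. IDH3B, of the citric acid cycle, was at 412 and 129.9 FPKM against 59.5, 56.9 and 52.5 FPKM, and lost its call under rescaling by the median ratio or trimmed mean. DHODH, the mitochondrial step of pyrimidine synthesis, was at 48.7 and 38.0 FPKM against 3.50, 0 and 0 FPKM.

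Folate enzymes thus stood on both sides. MTHFD1, the cytosolic enzyme of the folate path, was called higher, at 93.9 and 53.6 FPKM against 4.70, 22.5 and 0 FPKM. The mitochondrial folate enzymes SHMT2, MTHFD2 and ALDH1L2, described above, were called lower. Of 32 examined genes of nucleotide and folate metabolism, 5 separated upward and 4 downward, shares of 15.6% and 12.5% that lie near those of all genes.

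Antioxidant enzymes were mixed as well, with 8 of 44 upward (18.2%) and 4 downward (9.09%). GPX1, the main glutathione peroxidase, was at 1411 and 1054 FPKM against 290.0, 176 and 348 FPKM. MGST1, a microsomal glutathione transferase, was at 654 and 480.1 FPKM against 0, 66.9 and 223 FPKM. TXN, thioredoxin, separated downward, at 2757 and 1817 FPKM against 4172, 2773 and 6685 FPKM, with skin and heart nearly equal. PRDX2, a peroxiredoxin, did so as well, at 2212 and 2839 FPKM against 3099, 3203 and 4147 FPKM. GGCT, of glutathione breakdown, was at 98.6 and 44.0 FPKM against 0 in all 3. CHAC1, which acts on the same pathway, ran the other way.

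Other higher genes came from varied groups. CCNG1, a p53 target, was at 277 and 307 FPKM against 36.6, 65.8 and 107 FPKM. The p53 list had 4 of 19 genes upward and 1 downward, GADD45A, and its median of 1.77 was -0.30 without the lung-labelled library. XRCC4, of end-joining repair, was at 54.1 and 60.03 FPKM against 2.86, 3.19 and 0 FPKM. TUBG1, the gamma-tubulin that nucleates microtubules at the centrosome, was at 119 and 179 FPKM against 9.96, 12.3 and 0 FPKM. MIF, a secreted inflammatory mediator, was at 142 and 169 FPKM against 21.3, 26.2 and 12.8 FPKM. FABP3, a fatty acid carrier known from heart muscle, was at 324 and 246 FPKM against 14.6, 36.0 and 0 FPKM, so the heart-labelled library was on the lower side. PES1, of ribosome assembly, was at 52.9 and 52.8 FPKM against 8.66, 2.91 and 4.16 FPKM. The ribosome biogenesis list as a whole had 8 of 62 genes upward (12.9%) and 3 downward (4.84%). In that list 1 gene was called in each direction, and the median was -0.06. MS4A8, a membrane-spanning protein, was at 1525 and 597 FPKM against 179.7, 39.5 and 48.4 FPKM. KRT6A, a keratin of stressed epithelium, was at 237 and 422 FPKM against 77.4, 67.7 and 21.3 FPKM. Beside it, keratinocyte and epithelial markers summed to 76.5 and 72.5 FPKM against 27.8, 41.0 and 18.9 FPKM, from CDH1, KRT5 and KRT10. These did not share a pattern. CDH1 separated narrowly, at 55.7 and 14.1 FPKM against 0, 13.8 and 0 FPKM. KRT5 was above 0 in lung alone. KRT10 overlapped, at 20.8 and 7.43 FPKM against 27.8, 27.2 and 18.9 FPKM. The other 7 of the 10 entries, KRT14 and TP63 among them, were at 0 in all 5. The part of epithelial cells in the KRT6A values was not tested. SIX3, a regulator of eye and forebrain, was at 54.0 and 50.2 FPKM against 14.8, 22.3 and 10.6 FPKM, and was the called member among 27 developmental regulators, with 24 overlapping. Rescaling by the median ratio or trimmed mean ended its call, and the median of that list, -1.00, was 1.09 over its 4 members above 0 in all 5 libraries.

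The higher genes with the widest gaps were at 0 on the other side. PIGA, which starts the synthesis of membrane anchors, was at 68.2 and 58.1 FPKM against 0 in all 3. PCYT2, of phosphatidylethanolamine synthesis, was at 76.2 and 28.9 FPKM against 0 in all 3. SLC44A1, a choline transporter, was at 37.4 and 27.1 FPKM against 0 in all 3. INPP5K, a phosphoinositide phosphatase, was at 54.5 and 43.8 FPKM against 0.70, 0 and 0 FPKM. These zeros allow no fold. The unnamed ENSBTAG00000043545 had by far the highest values among the called genes, at 27164 and 21909 FPKM against 0 in all 3. What kind of transcript it is was not known here, since small RNAs were recognised by name alone. Another unnamed gene, ENSBTAG00000039334, was at 438 and 919 FPKM against 76.2, 18.9 and 56.3 FPKM. Of the 189 higher genes, 113 were at 0 in limb, 67 in heart and 60 in brain, and skin was the highest library for 114 and lung for 75.

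**Figure D3:**
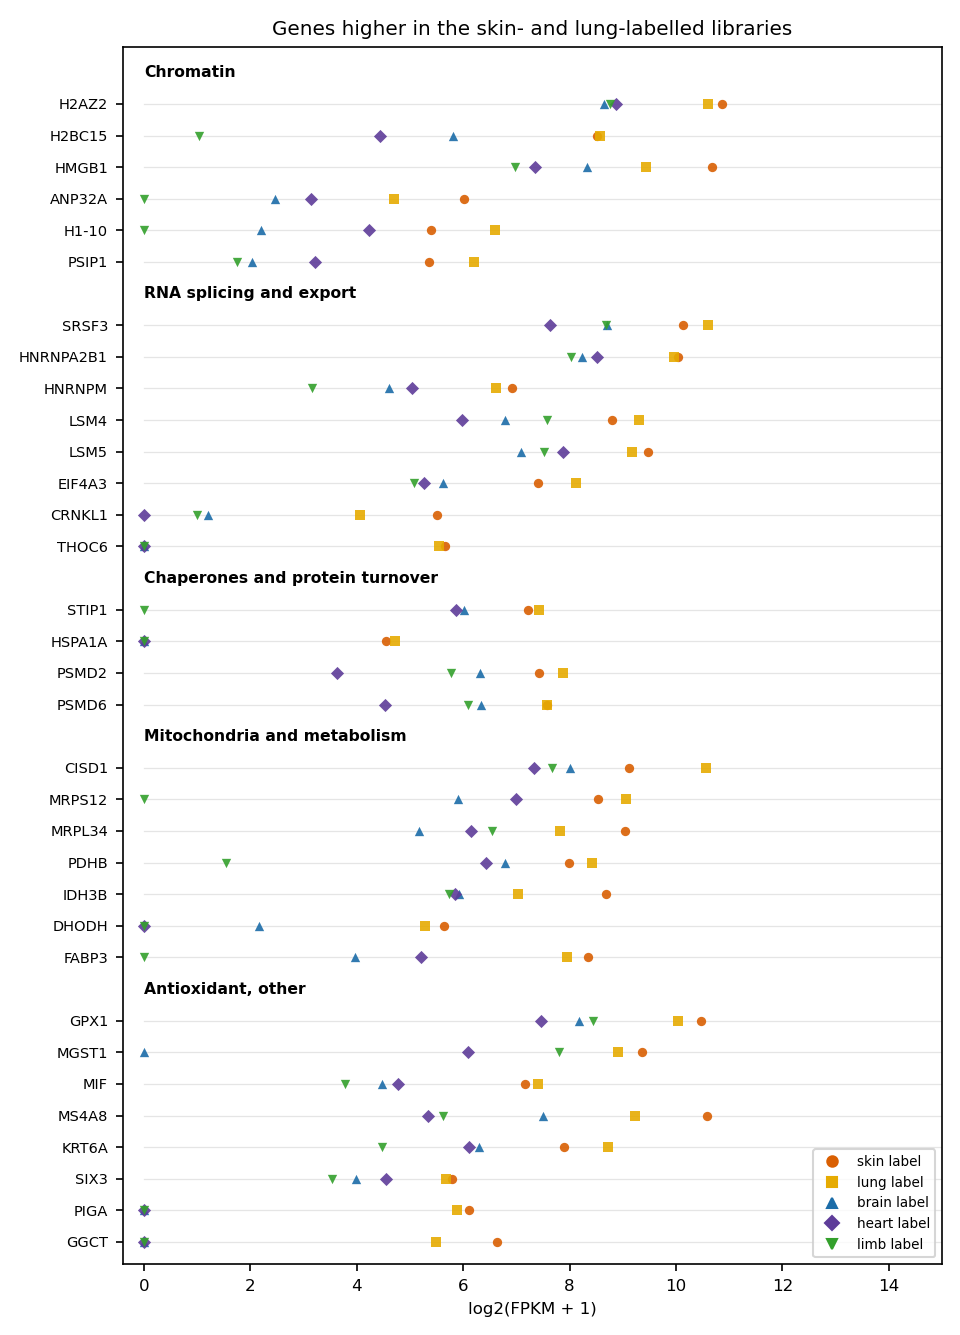
Values of 33 genes called higher in the skin- and lung-labelled libraries, as log2(FPKM + 1) on the x axis, with 1 row per gene and 1 marker per library (orange circle skin, yellow square lung, blue, purple and green for brain, heart and limb). In each row the orange and yellow markers lie to the right of the other 3, which are at 0 for THOC6, HSPA1A, PIGA and GGCT.

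Set side by side, the lists differed in how one-sided they were. The largest shares of upward genes were those of mitochondrially encoded respiratory genes (6 of 13, 46.2%), chromatin components (40.7%), complexes III to V (39.5%) and the cell cycle list that defined the sides (87 of 220, 39.5%). Respiratory genes were nearly all above 0 in all 5 libraries, and 16.2% of such genes separated upward, against 10.2% of all examined genes. The largest shares of downward genes were those of the ATF4 list (54.5%), actin and contractile genes (50%) and antigen presentation (35.3%). Lists with both shares near those of all genes included translation factors, with 6 of 60 in each direction, COPI and COPII trafficking, with 4 and 5 of 56, and clathrin and endosomal sorting, with 7 and 10 of 80. Glycolytic genes separated upward for 3 of 19 and downward for 0. GAPDH overlapped, at 6525 and 6016 FPKM against 6475, 7569 and 5697 FPKM.

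**Figure D4:**
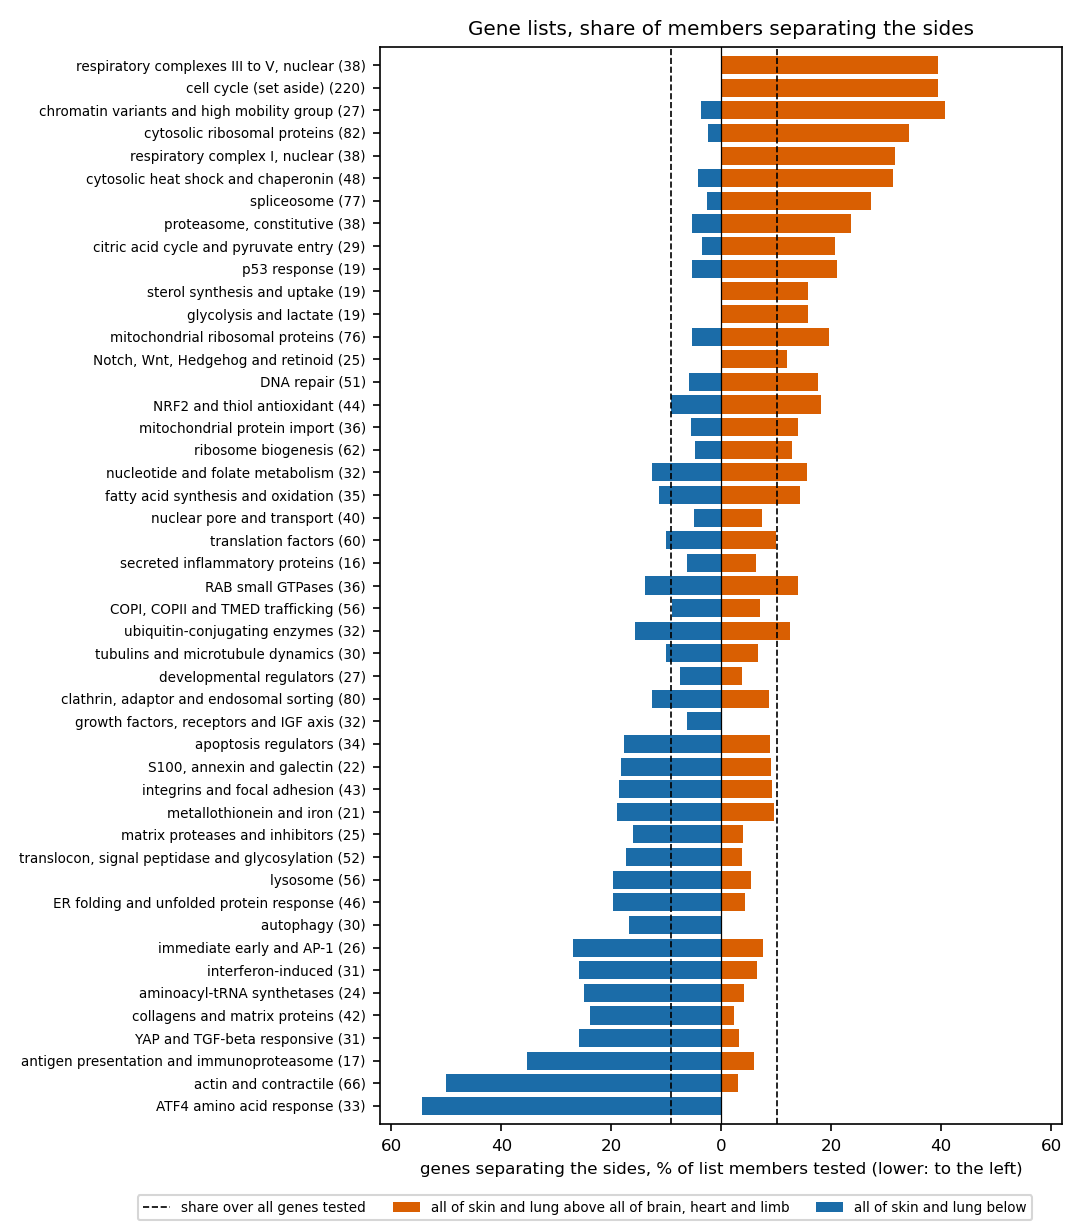
Bars show, for the gene lists with their number of examined members in parentheses, the percentage separating the sides. Bars run to the right in orange where both the skin and lung values exceed the other 3, and to the left in blue where both are below. The smallest lists are not drawn, namely mitochondrially encoded respiratory genes (13 examined) and intermediate filaments and lamins (8 examined). Dashed lines mark the shares over all genes, 10.2% and 9.19%. Over genes above 0 in all 5 libraries, which are not marked, the shares were 16.2% and 12%. The blue bar is longest for the ATF4 list (54.5%), and the cell cycle list has 0 genes to the left.

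The 2-fold gap draws a line through a continuous range. Just inside it on the higher side, SLC25A1, the mitochondrial citrate carrier, was at 69.8 and 81.9 FPKM against 13.9, 34.3 and 0 FPKM. Just outside, SOCS4 was at 79.8 and 52.5 FPKM against 15.9, 25.8 and 0 FPKM. On the lower side USP16, a deubiquitinase of histone H2A, lay just inside, at 0 and 9.79 FPKM against 53.02, 26.1 and 20.7 FPKM. EIF3J, an initiation factor subunit, lay just outside, at 28.5 and 31.7 FPKM against 65.4, 84.2 and 64.3 FPKM.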

How the data were processed

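The 5 RNA sequencing libraries came in 1 table of 27607 genes that the authors deposited, 19856 of them with a name. Per the submitters' processing notes, bcl2fastq, STAR, RSEM and the ARS-UCD1.2 genome build were used; versions, annotation and filters were not given in the sources used here. No label or header names the unit. The values the authors deposited were read as FPKM by elimination, as they are not whole numbers and sum to more than TPM would. FPKM is scaled to each library's total, so a few abundant genes can shift the rest, and read depth is unknown.

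The values were used as deposited, with Python 3.11.15 and pandas 2.3.3. Genes averaging 1 FPKM or more were examined. For each, the mean log2(FPKM + 1) of both sides and the gap between their closest values were computed, with a call at a gap of 1 (2-fold) and a lowest value of at least 10 FPKM on the higher side. No fold is given against a side at 0. A cell cycle list of 288 names was set aside, and 48 other gene lists and 14 lists of cell type markers were described by counts and medians; lists share members. The members, the sides and the lists were chosen with earlier results of these data known, so counts are descriptions and no test was run. In each direction the text draws on the 20 named genes with the widest gap, the 10 most abundant, the 10 with the widest gap among genes above 0 in all 5 libraries, the called members of each list, and in each list the 2 most abundant genes that overlap. Members that separate without a call (such as ACTB, ATF4 and HSPA8) and unnamed genes were described as well, after their values were seen. Names with several entries and near-identical gene copies have uncertain values. The rule was tested on simulated data with genes of known change. Alternatives were other pseudocounts, minimums and gaps, 4 rescalings, and leaving out each library; genes above 0 in all 5 libraries were added after seeing the data. A few named genes are not reported here. No sequences or coordinates were used here.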

Additional observations from a re-analysis of the deposited data

How the results depend on the processing

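No paired analysis was possible because each label has 1 library. The main counts were 238 higher and 249 lower genes, or 189 and 249 outside the cell cycle list. They stayed within 1.5 times these values under other pseudocounts, 4 rescalings and a mean of at least 10 FPKM. Using no filter, or leaving out small RNAs, gave the same counts but could not have changed them. A called gene passes the filter by its values on the higher side, and none was named as a small RNA. A minimum of 1 FPKM on the higher side gave 414 lower genes, in and outside the list alike. A minimum of 50 FPKM gave 111 higher and 75 lower (87 and 75 outside the list), and a gap of 2 gave 118 and 160 (77 and 160). Separation alone, with the main minimum of 10 FPKM on the higher side but no gap, gave 727 and 546 (656 and 546). Genes above 0 in all 5 libraries, added after seeing the data, gave 58 and 63 (54 and 63). Without 1 library the higher genes numbered 345 to 1080 and the lower 411 to 615 (290 to 961 and 410 to 611 outside the list), because a rule over fewer libraries is easier to meet. The higher genes were 48.9% of calls, and 44.4% to 45.0% after rescaling, 59.7% with the minimum of 50 FPKM and 57.1% by separation alone.

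Of 588 list medians under an alternative, 3 turned direction: aminoacyl-tRNA synthetases at 0.14 without the skin-labelled library, the p53 response at -0.30 without the lung-labelled library, and developmental regulators at 1.09 among genes above 0 in all 5. Without 1 library in turn these medians ran from -1.78 to 0.14 for the synthetases and from -0.30 to 1.33 for the p53 response. The cause was not tested. Small list medians are not counted there, since a turn was read only from medians of at least 1. At a pseudocount of 10 the medians of lists rich in zeros shrank, that of the ATF4 list to -1.36 and that of the YAP and TGF-beta list to -0.48. Named genes turned direction in 0 of 2148 cases, but they had been chosen because their sides do not overlap. Leaving out a library or changing the pseudocount cannot reverse such a gene, so this 0 is no measure of robustness. Of 179 named genes, 145 were still called at a pseudocount of 10 and 171 to 173 under rescaling. Rescaling divided each library by a factor. For the median ratio and trimmed mean, the heart-labelled library's factor was largest in size, at -0.14 and -0.13 on the log2 scale. Division by it raised the values of that library. Under the other rescalings the brain-labelled library's factor was largest in size, at -0.07 in each. With 1 library per label and unknown depth, neither the spread between samples nor the share of missed genes can be given.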
